A study of Mus musculus with 2 samples.

Results

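The cells described here are Kupffer cells, the macrophages that line the sinusoids of the liver, from a mouse given the red-cell antibody Ter119, grouped by the transcript of Gpnmb. In the Ter119 library, 1205 Kupffer cells had at least 2 Gpnmb molecules, counted by unique molecular identifiers (UMIs), and are called Gpnmb-positive. They are set against 724 Kupffer cells of the same library with no Gpnmb UMI, called Gpnmb-0. Of 25760 Ter119 barcodes, 5309 had at least 2000 UMIs, at least 500 genes, at most 15% mitochondrial UMIs and under 5% hemoglobin UMIs. Of these, 3453 had at least 1% of their UMIs in the Kupffer genes Cd5l, Marco, Slc40a1, Clec4f and Vsig4. Limits on neutrophil transcripts (S100a8 and S100a9 under 1%), endothelial transcripts (at most 1 UMI of Kdr, Ptprb and Clec4g) and resident-cell transcripts (at most 1 UMI of Timd4, C6 and Cd163) left 2609 cells. The Gpnmb-positive cells made up 46.2% of these (exact Clopper-Pearson 95% interval 44.3 to 48.1%) and the Gpnmb-0 cells 27.8% (26.0 to 29.5%). The other 680 cells (26.1%) had exactly 1 Gpnmb UMI and are in neither group. Because Gpnmb counts set the groups, its own difference between them is no result, and the values of every other gene come from the same contrast and are given as a description.

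The Ter119 mouse was a C57BL/6J animal aged 7 to 10 weeks that received 35 ug of the antibody under the skin and then 10 daily doses of 10 ug. A second mouse of the same strain and age range received saline, and its Kupffer cells give an outer level. Each liver was removed 24 after the final dose (the labels give no unit), and macrophages were enriched with beads carrying antibodies to F4/80 and CD11b. The title of the series names reprogramming of Kupffer cells that engulf red cells as its subject. There was 1 mouse and 1 library per treatment, and both Ter119 groups came from 1 library, so no test was possible. All intervals are 95% intervals that cover counting error only, not the spread between cells or mice, and in any value set beside saline the mouse, its treatment and its library cannot be told apart. The cells of both mice were tagged with hashtag antibodies and pooled before capture, and 133 barcode sequences occurred in both libraries, of which 6 were among the Gpnmb-positive and 2 among the Gpnmb-0 cells.

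Gpnmb encodes a glycosylated transmembrane protein of lysosomes, melanosomes and the cell surface, and it is known as a marker of macrophages loaded with lipid or cell debris. Its transcription is driven in several cell types by the MiT family of transcription factors, among them Mitf, Tfeb and Tfe3, which also act on many lysosomal genes. Kupffer cells clear aged and antibody-coated red cells, break down their heme and store or export the iron. Of the markers chosen with Gpnmb, Cd63 and Cd9 are tetraspanins of endosomes and the cell surface, Fabp5 carries fatty acids, and Atp6v0d2 is a subunit of the proton pump that acidifies lysosomes.

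Promoter windows from RefSeq (GRCm38.p6, from 250 bases before to 50 bases after an annotated start) are shown for Gpnmb, which set the groups, for Mmp12, which had the highest ratio among the genes compared, and for Gla, a lysosomal enzyme gene whose window held the most matches among those searched. Capitals mark matches, on either strand, to TCACGTG and TCATGTG, which MiT factors can bind, or to TGACNNNGC, the core of the element bound by the antioxidant factor NRF2. The windows lie at chr6:49036268-49036567 (Gpnmb, plus strand), chr9:7347124-7347423 (Mmp12, plus strand) and chrX:134600956-134601255 (Gla, minus strand), and are written 5′ to 3′ along each gene.
Gpnmb: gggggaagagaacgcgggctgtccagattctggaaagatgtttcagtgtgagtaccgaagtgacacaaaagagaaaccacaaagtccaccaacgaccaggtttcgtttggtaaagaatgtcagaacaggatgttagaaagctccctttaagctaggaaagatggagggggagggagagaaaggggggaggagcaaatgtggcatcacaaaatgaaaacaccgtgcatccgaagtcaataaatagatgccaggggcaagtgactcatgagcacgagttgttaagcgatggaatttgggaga
Mmp12: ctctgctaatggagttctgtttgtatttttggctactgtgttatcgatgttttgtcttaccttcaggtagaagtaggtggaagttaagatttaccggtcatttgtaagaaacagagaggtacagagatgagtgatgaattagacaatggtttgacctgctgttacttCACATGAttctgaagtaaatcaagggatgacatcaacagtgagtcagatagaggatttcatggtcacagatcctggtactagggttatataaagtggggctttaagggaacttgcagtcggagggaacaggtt
Gla: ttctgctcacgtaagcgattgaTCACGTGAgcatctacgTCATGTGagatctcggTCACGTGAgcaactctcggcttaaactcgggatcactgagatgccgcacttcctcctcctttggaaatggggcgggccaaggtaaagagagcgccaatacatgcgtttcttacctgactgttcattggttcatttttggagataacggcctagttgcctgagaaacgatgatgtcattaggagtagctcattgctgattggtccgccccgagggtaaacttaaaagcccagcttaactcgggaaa
The Gpnmb window held none of the 3 strings. The Mmp12 window held TCATGTG once, on the strand opposite to the gene, 83 bases before the start, and the other Mmp12 window in the table held none. The Gla window held TCACGTG at 2 places, each within TCACGTGA, which reads the same on both strands, and TCATGTG once between them. Of all 32851 mouse windows in the table, 3.77% held TCACGTG, 3.77% held TCATGTG and 12.4% held TGACNNNGC. Windows were given for 3 of the 5 markers (Gpnmb, Cd63 and Cd9), and none of the 3 held a match. The windows of Mmp12 and Gla were chosen after their values had been seen.

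Gpnmb (ENSMUSG00000029816, GRCm38 chromosome 6, 49036546 to 49070929) gave few molecules per cell. The Gpnmb-positive cells held 4439 Gpnmb UMIs, with a median of 3 and a highest count of 20 per cell. This made 806 counts per 1000000 summed UMIs (CPM), a total that leaves out hemoglobin here and below. Cells with 1 Gpnmb UMI stood at 253 CPM. The 6985 saline Kupffer cells, taken by the same filters without the limit on Timd4, C6 and Cd163, stood at 0.434 CPM (25 UMIs), and 2 of them had 2 or more Gpnmb UMIs. With that limit only 56 saline cells were left, with 0 Gpnmb UMIs, which allows up to 18.3 CPM. Saline values below are those of the 6985 cells.

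**Figure D1:**
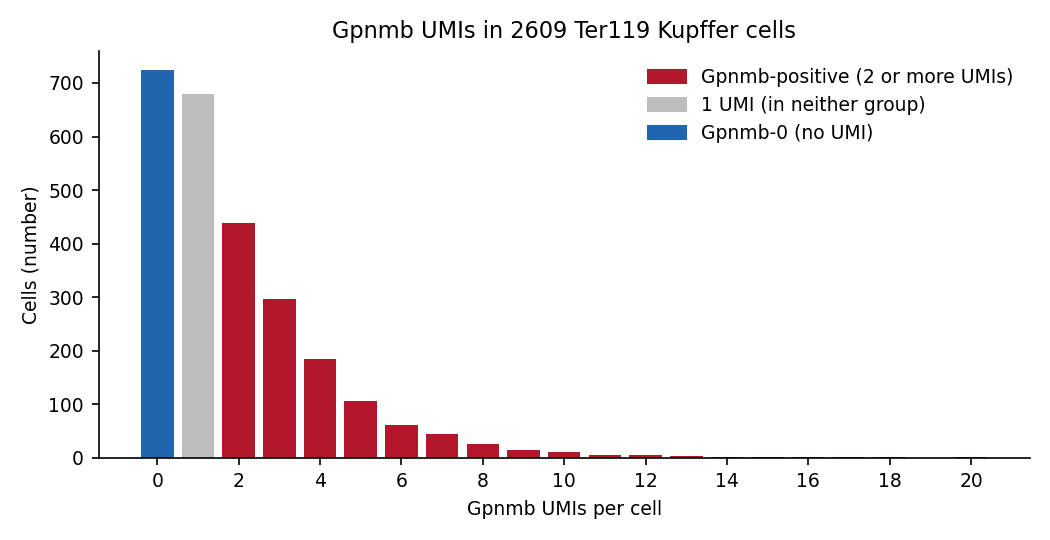
Number of Ter119 Kupffer cells (vertical axis) at each count of Gpnmb UMIs per cell (horizontal axis), with Gpnmb-positive cells in red, cells with 1 UMI in grey and Gpnmb-0 cells in blue. The numbers fell off without a gap, with 724 cells at 0, 680 at 1, 439 at 2 and 297 at 3 UMIs.

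The threshold lay inside a continuous distribution. Just inside it, the 439 cells with 2 Gpnmb UMIs had Fabp5 at 1147 CPM, Cd63 at 618 CPM and Atp6v0d2 at 43.3 CPM. Just outside it, the 680 cells with 1 UMI had Fabp5 at 1038 CPM, Cd63 at 585 CPM and Atp6v0d2 at 33.4 CPM. Sequencing depth moved with the grouping. Median UMIs per cell were 4401 in Gpnmb-positive and 3493 in Gpnmb-0 cells, and median genes detected were 1833 and 1600.5 in that order. The Gpnmb-positive share was 30.7% in the lowest tertile of UMIs per cell, 45.9% in the middle one and 62.1% in the highest. When each cell was thinned at random to 1900 UMIs, 570 cells had 2 or more Gpnmb UMIs, 763 had 1 and 1276 had 0, so many cells changed class by depth alone. In thinned cells the median number of genes was 1008 in Gpnmb-positive and 1025 in Gpnmb-0 cells. The median mitochondrial share was 5.81% in Gpnmb-positive and 6.24% in Gpnmb-0 cells, and the median hemoglobin share was 0.328% and 0.389%.

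Cells with no Gpnmb UMI were not shown to lack the transcript. Each cell's UMIs were divided at random into 2 sets, with cells grouped on the first set and levels read in the second, an alternative chosen after seeing the data. Gpnmb stood at 737 CPM in the second set of the 608 cells with 2 or more Gpnmb UMIs in the first, at 473 CPM in the 770 cells with 1 and at 321 CPM in the 1231 cells with 0. The ratio of the first of these classes to the last was 2.30 (2.09 to 2.53), and cells of all 3 classes held Gpnmb UMIs in the second set. In cells of other types in the same library, Gpnmb stood at 53.9 CPM in 23 cells chosen by B cell genes, at 87.1 CPM in 247 chosen by neutrophil genes and at 218 CPM in 253 chosen by endothelial genes. Gpnmb also varied between the 2609 cells more than most genes of like mean. At 1900 UMIs per cell its variance was 1.56 times its mean, against a median of 1.08 and a 95th percentile of 1.203 over 134 genes of like mean.

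Of the other 4 markers, Atp6v0d2 and Fabp5 stood more than 1.5-fold higher in Gpnmb-positive than in Gpnmb-0 cells, and Cd63 and Cd9 stood higher by less. Atp6v0d2 (ENSMUSG00000028238, chromosome 4, 19876841 to 19922605) had 64.1 CPM in Gpnmb-positive, 26.4 CPM in Gpnmb-0 and 1.06 CPM in saline cells, a ratio of Gpnmb-positive over Gpnmb-0 of 2.43 (1.87 to 3.18). Fabp5 (ENSMUSG00000027533, chromosome 3, 10012548 to 10016607) had 1515 CPM in Gpnmb-positive, 893 CPM in Gpnmb-0 and 12.9 CPM in saline cells, a ratio of 1.696 (1.62 to 1.78). For both genes the gap between the Ter119 groups was small beside their distance from saline. Cd63 (ENSMUSG00000025351, chromosome 10, 128900989 to 128912822) had 759 CPM in Gpnmb-positive, 575 CPM in Gpnmb-0 and 7.55 CPM in saline cells, a ratio of 1.32 (1.24 to 1.40). Cd9 (ENSMUSG00000030342, chromosome 6, 125460266 to 125494791) had 199.6 CPM in Gpnmb-positive, 174 CPM in Gpnmb-0 and 12.6 CPM in saline cells, a ratio of 1.15 (1.03 to 1.28). In cells without a Gpnmb UMI these transcripts thus stood well above the saline level. The part of RNA free in the suspension in these levels was not tested. The ratio of Gpnmb-0 over saline was 76.2 for Cd63 (68.5 to 85.0), 69.2 for Fabp5 (63.7 to 75.2), 24.98 for Atp6v0d2 (17.5 to 35.8) and 13.8 for Cd9 (12.2 to 15.5).

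Fabp5, Cd63 and Atp6v0d2 stood higher in each class of more Gpnmb UMIs, and Cd9 did not. Over cells with 0, 1, 2 to 3, 4 to 7 and at least 8 Gpnmb UMIs (724, 680, 736, 398 and 71 cells), Fabp5 stood at 893, 1038, 1267, 1710 and 2577 CPM. Cd63 stood at 575, 585, 688, 808 and 1107 CPM over the same classes. Atp6v0d2 stood at 26.4, 33.4, 46.4, 71.2 and 174 CPM. Cd9 stayed between 174 and 209 CPM. The order was the same in cells thinned to 1900 UMIs and classed again as 0, 1, 2 to 3 and at least 4 Gpnmb UMIs (1276, 763, 473 and 97 cells). There Fabp5 stood at 993, 1175, 1454 and 2105 CPM, and Atp6v0d2 at 31.3, 49.7, 62.3 and 157 CPM. Within tertiles of depth, Fabp5 had 1262, 1337 and 1666 CPM in Gpnmb-positive cells of the lowest, middle and highest tertile, against 834, 854 and 1009 CPM in Gpnmb-0 cells. The difference was thus present at each depth.

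**Figure D2:**
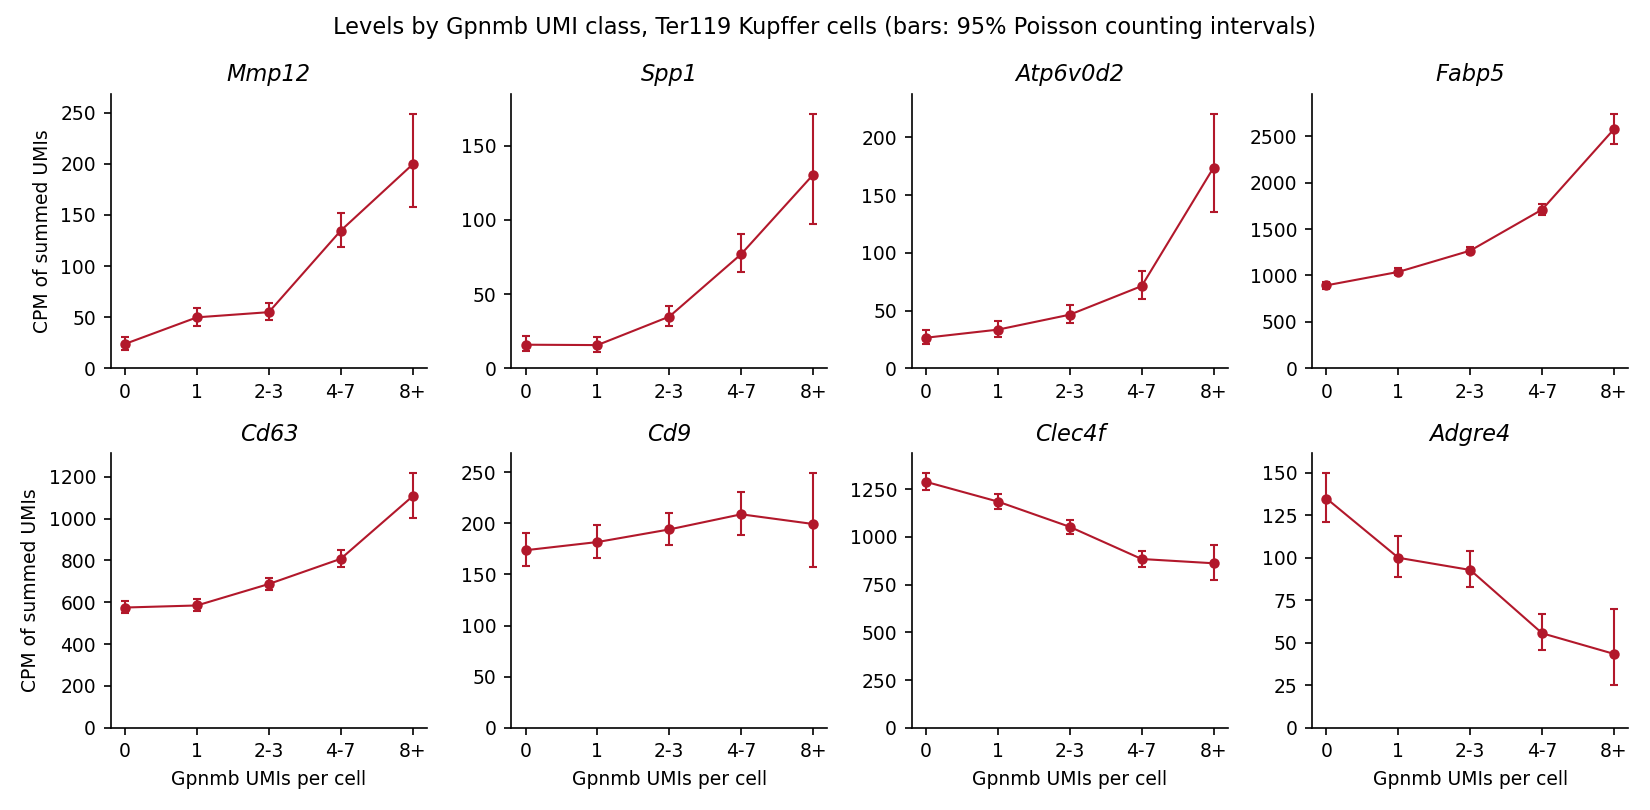
Level in CPM of summed UMIs (vertical axes, each starting at 0) of 8 genes in Ter119 Kupffer cells with 0, 1, 2 to 3, 4 to 7 and 8 or more Gpnmb UMIs (horizontal axes), with bars for 95% Poisson intervals on the counts. Mmp12, Spp1, Atp6v0d2, Fabp5 and Cd63 were highest in the class with the most Gpnmb, Cd9 stayed between 174 and 209 CPM, and Clec4f and Adgre4 were lowest there.

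The share of cells with a marker UMI was read against the cells of other types, where RNA free in the suspension can give stray UMIs. In cells thinned to 1900 UMIs, Fabp5 was found in 86.3% of Gpnmb-positive and 70.2% of Gpnmb-0 cells, against 43.5% of the 23 B-gene cells, 34.8% of the 247 neutrophil-gene cells and 68.0% of the 253 endothelial-gene cells. Atp6v0d2 was found in 10.6% of Gpnmb-positive and 4.83% of Gpnmb-0 cells, against 0 of 23, 1.62% and 3.95% in those sets, and the 0 of 23 allows a share of up to 13.04% by the limit of 3 counts and of up to 14.8% by the exact interval. Cd63 was found in 70.1% of Gpnmb-positive and 61.9% of Gpnmb-0 cells, against 39.1%, 56.7% and 46.2%. The endothelial-gene cells came close to the Gpnmb-0 cells in Fabp5 and Atp6v0d2, and these sets also held Kupffer genes, with Cd5l, Marco, Slc40a1, Clec4f and Vsig4 summing to 2561, 2496 and 5256 CPM. Median UMIs per cell in the 3 sets were 2544, 2913 and 2703. The Cd9 share, 29.5% in Gpnmb-positive and 26.9% in Gpnmb-0 cells, was below the 46.6% and 31.6% of the neutrophil-gene and endothelial-gene sets and above only the 26.1% of the B-gene set, which rests on 6 of 23 cells. Cd9 also stood at 356 CPM in the thinned neutrophil-gene and 221 CPM in the thinned endothelial-gene cells. The Cd9 share of the Kupffer cells is therefore not read as expression. The part of free RNA in the ratios of Cd9, Fabp5, Atp6v0d2 and Cd63 over saline was not tested. Before thinning, 96.3% of Gpnmb-positive and 85.5% of Gpnmb-0 cells had a Fabp5 UMI, 18.8% and 7.87% an Atp6v0d2 UMI, 89.8% and 78.5% a Cd63 UMI and 55.0% and 44.1% a Cd9 UMI. All 4 markers were found together in 30 of 1205 Gpnmb-positive (2.49%) and 6 of 724 Gpnmb-0 cells (0.829%) after thinning, and none of the 4 in 40 (3.32%) and 69 (9.53%).

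Apart from Gpnmb, 5834 genes had at least 20 CPM in 1 of the groups. Of these, 36 (0.617%) were at least 1.5-fold higher in Gpnmb-positive cells and 51 (0.874%) were lower by the same fold. Higher genes thus made up 41.4% of those past the fold. The split was 50 higher and 31 lower (61.7% higher) with TMM factors, and 55 and 32 (63.2%) with median-of-ratios factors. The median log2 ratio over all 5834 genes was -0.05, and 4723 genes (81.0%) lay within 1.2-fold. At 2-fold, 7 genes (0.12%) were higher and 1 (0.0171%) lower. The 7 were Mmp12, Spp1, Atp6v0d2, Adam8, Syngr1, Cd93 and Slamf7. Cd93, a membrane glycoprotein of myeloid and endothelial cells, had 28.5 CPM in Gpnmb-positive and 12.8 CPM in Gpnmb-0 cells (2.22, 1.53 to 3.32). Slamf7, a receptor of the SLAM family, had 25.6 CPM in Gpnmb-positive and 12.1 CPM in Gpnmb-0 cells (2.12, 1.44 to 3.22). The 1 lower gene was the chemokine Ccl5. Cd93, Slamf7 and Ccl5 were named after their values were seen, and Ccl5 had 12.9 CPM in Gpnmb-positive and 28.7 CPM in Gpnmb-0 cells. The fold rule is not a test. By their ratios alone, whether or not they met the count filter of a setting, 7 of the 36 and 2 of the 51 genes stayed past 1.5-fold in 21 alternative settings grouped by Gpnmb, which leave out the 2-fold rule and the random split of UMIs. Among these, Mmp12, Spp1, Atp6v0d2, Adam8 and Fabp5 were higher, and Marcksl1 and Adgre4 lower. Not all of the 21 settings could change this count. Those of the count filter leave every ratio as it was. The TMM and median-of-ratios factors raise every log2 ratio by a constant, so no higher gene could drop out under them.

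Genes of lipid-associated macrophages had the highest median of the gene lists with at least 3 measured genes. This program is known from macrophages of fatty tissue and of scarred liver. All 19 measured members other than Gpnmb had ratios above 1 under each of the 3 scalings. Of the 19, 6 were past 1.5-fold higher and 0 past 1.5-fold lower, beside 0.617% and 0.874% of all genes compared. The counts in the lists below stand beside these same shares. The median log2 ratio of the list was 0.40, beside -0.05 over all genes. Fabp5, Cd63, Atp6v0d2 and Cd9 are members of the list, which was chosen with results of these cells known. Mmp12, the macrophage elastase (ENSMUSG00000049723, chromosome 9, 7344381 to 7369499), had 512 UMIs (93.0 CPM) in Gpnmb-positive, 63 UMIs (23.8 CPM) in Gpnmb-0 and 11.2 CPM in saline cells, a ratio of Gpnmb-positive over Gpnmb-0 of 3.91 (3.00 to 5.16). Spp1, which encodes the secreted phosphoprotein osteopontin (ENSMUSG00000029304, chromosome 5, 104435118 to 104441050), had 310 UMIs (56.3 CPM) in Gpnmb-positive, 42 UMIs (15.9 CPM) in Gpnmb-0 and 1.87 CPM in saline cells, a ratio of 3.55 (2.57 to 5.02). Both transcripts came from a minority of cells. After thinning, Mmp12 had a UMI in 9.63% of Gpnmb-positive and 3.73% of Gpnmb-0 cells, against 4.35% of B-gene, 2.83% of neutrophil-gene and 2.37% of endothelial-gene cells. Spp1 had one in 8.30% of Gpnmb-positive and 3.04% of Gpnmb-0 cells, against 8.70% (2 of 23 cells, interval 1.07 to 28.0%), 2.83% and 2.77%. The Gpnmb-0 shares of both genes lay within the exact intervals of all 3 sets, which reached 5.75% and 5.09% for Mmp12 in the neutrophil-gene and endothelial-gene cells and 5.75% and 5.62% for Spp1. They could not be told from those sets at this depth. The Gpnmb-positive shares lay above these 4 upper limits but within the wide intervals of the 23 B-gene cells.

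**Figure D3:**
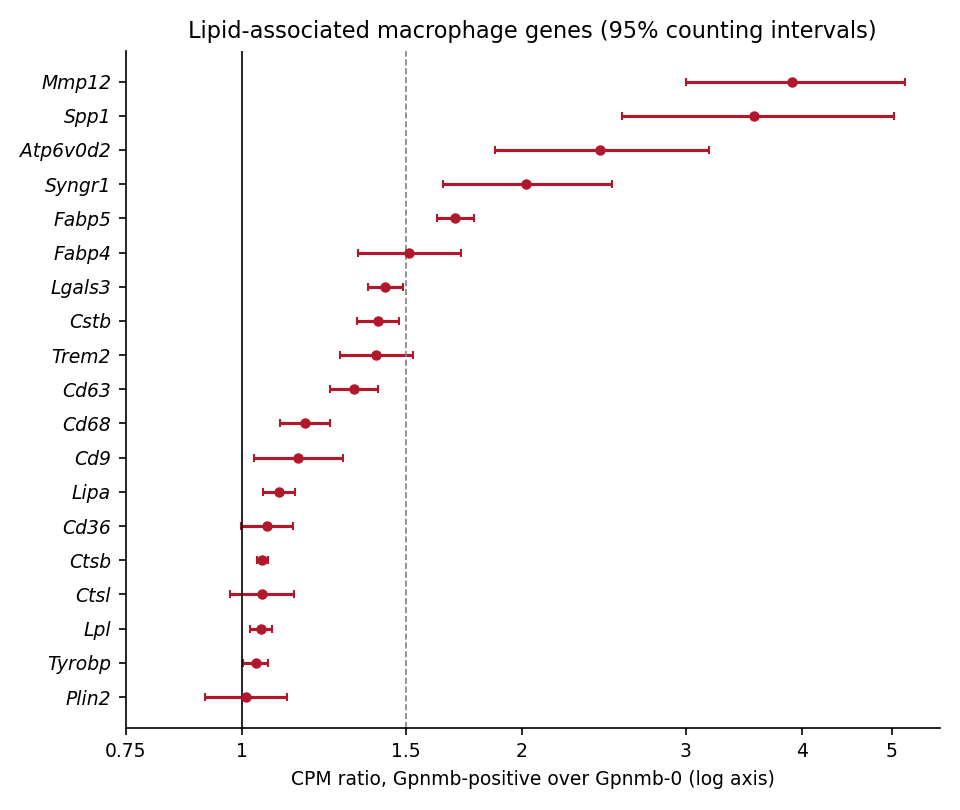
CPM ratio of Gpnmb-positive over Gpnmb-0 cells (horizontal log axis) for the 19 measured genes of the lipid-associated macrophage list, with 95% counting intervals, a solid line at 1 and a dashed line at 1.5. Mmp12 at 3.91 and Spp1 at 3.55 lay farthest to the right, 6 genes lay past the dashed line, and Plin2 at 1.01 lay nearest to the solid line.

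Syngr1, a vesicle membrane protein known best from synapses (ENSMUSG00000022415, chromosome 15, 80091334 to 80119501), had 87.0 CPM in Gpnmb-positive, 43.1 CPM in Gpnmb-0 and 0.156 CPM in saline cells, a ratio of Gpnmb-positive over Gpnmb-0 of 2.02 (1.64 to 2.50). Fabp4, another fatty acid carrier, had 183 CPM in Gpnmb-positive, 121 CPM in Gpnmb-0 and 9.06 CPM in saline cells, a ratio of 1.51 (1.33 to 1.72). Lgals3, which encodes galectin 3, a lectin that gathers on damaged lysosomes, had 1448 CPM in Gpnmb-positive, 1015 CPM in Gpnmb-0 and 515 CPM in saline cells, a ratio of 1.43 (1.37 to 1.49). Other members of the list ranged down to near level. Trem2, its lipid-sensing receptor, had 343 CPM in Gpnmb-positive, 246 CPM in Gpnmb-0 and 39.9 CPM in saline cells, a ratio of 1.39 (1.28 to 1.53). The lipid droplet coat protein Plin2 had a ratio of 1.01 (0.913 to 1.12) and the lipase Lpl of 1.05 (1.02 to 1.08). Trem2, Plin2 and Lpl were named after their values were seen.

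Genes of matrix and of proteolysis gave 3 of 10 measured members past 1.5-fold higher, beside 0.617% of all genes compared, and 0 lower, with a median log2 ratio of 0.26. The 3 were Mmp12 and Spp1, already counted above, and Adam8. Adam8, a membrane-bound metalloprotease (ENSMUSG00000025473, chromosome 7, 139978932 to 139992562), had 64.3 CPM in Gpnmb-positive, 31.3 CPM in Gpnmb-0 and 0.937 CPM in saline cells, a ratio of 2.05 (1.61 to 2.64). The protease Mmp19 had 98.8 CPM in Gpnmb-positive and 81.2 CPM in Gpnmb-0 cells (1.22, 1.04 to 1.43). The 3 genes past the fold also followed the classes of 0, 1, 2 to 3, 4 to 7 and at least 8 Gpnmb UMIs, apart from Spp1 at 1 UMI. Mmp12 stood at 23.8, 49.8, 54.9, 135 and 199 CPM, Spp1 at 15.9, 15.6, 34.8, 76.9 and 130.4 CPM, and Adam8 at 31.3, 34.9, 50.8, 76.4 and 115 CPM. In the lowest, middle and highest tertile of depth, the log2 ratio of Mmp12 was 2.20, 2.27 and 1.58, that of Spp1 was 1.89, 2.33 and 1.82, and that of Adam8 was 1.45, 0.77 and 1.30.

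Genes of the lysosome, where the Gpnmb protein resides, for the most part differed between the groups by less than 1.5-fold. The medians of the hydrolase, proton pump and lysosomal membrane lists stood slightly above the -0.05 of all genes. Of 25 measured hydrolase genes, 1 was past 1.5-fold higher and 0 lower, beside 0.617% and 0.874% of all genes, with a median log2 ratio of 0.08. That gene was Gla, alpha-galactosidase A (ENSMUSG00000031266, chromosome X, 134588149 to 134601125), whose promoter window is printed above, with 63.2 CPM in Gpnmb-positive, 39.7 CPM in Gpnmb-0 and 10.5 CPM in saline cells, a ratio of 1.59 (1.28 to 2.002). The aspartic protease Ctsd had 5006 CPM in Gpnmb-positive, 4299 CPM in Gpnmb-0 and 1771 CPM in saline cells, a ratio of 1.16 (1.14 to 1.19). Of 15 measured subunits of the proton pump, only Atp6v0d2 was past 1.5-fold, and the median log2 ratio was 0.07. Its catalytic subunit Atp6v1a came next, with 326 CPM in Gpnmb-positive and 270 CPM in Gpnmb-0 cells (1.21, 1.11 to 1.32). Of 14 lysosomal membrane genes, 0 were past 1.5-fold either way, with a median log2 ratio of 0.09. Of 11 tetraspanins, 0 were past it either way, and the median was -0.06. Ratios in CPM were above 1 for 19 of the 25 hydrolase genes and 13 of the 15 pump subunits. They were above 1 for 10 of the 14 membrane genes and 4 of the 11 tetraspanins. With TMM factors these counts were 22, 14, 11 and 5 in the same order.

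Transcripts of factors that act on Gpnmb stood level or lower in Gpnmb-positive cells. Of 11 measured regulators and partners of Gpnmb, 0 were past 1.5-fold in either direction, and the median log2 ratio was -0.15. All 11 had ratios below 1 in CPM, while with TMM factors 3 (Adam10, Bsg and Itgb1) were above 1. The remaining gene of the list, Itga5, was under 20 CPM in both groups and so was not compared. Its log2 ratio was 0.53. Mitf had 45.1 CPM in Gpnmb-positive and 51.0 CPM in Gpnmb-0 cells (0.884, 0.714 to 1.10). Tfeb had 25.4 CPM in Gpnmb-positive and 27.2 CPM in Gpnmb-0 cells (0.935, 0.699 to 1.261). The intervals of both included 1, and that of Tfe3 did not, with 62.1 CPM in Gpnmb-positive and 77.4 CPM in Gpnmb-0 cells (0.802, 0.673 to 0.959). Cd44, a hyaluronan receptor that Gpnmb binds, had 703.5 CPM in Gpnmb-positive and 806 CPM in Gpnmb-0 cells (0.873, 0.828 to 0.921), and Adam10, a protease that sheds the Gpnmb ectodomain, had 245 CPM and 247 CPM in that order.

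Genes of heme and iron gave 0 of 17 measured members past 1.5-fold either way, with a median log2 ratio of -0.02 in CPM and 0.03 with TMM factors. The ferritin chains had the highest ratios of the 17 and Tfrc, the transferrin receptor, the lowest. Fth1, the ferritin heavy chain, had 35592 CPM in Gpnmb-positive, 28190 CPM in Gpnmb-0 and 5632 CPM in saline cells, a ratio of Gpnmb-positive over Gpnmb-0 of 1.263 (1.252 to 1.27). Ftl1, the light chain, had 20846 CPM in Gpnmb-positive, 17618 CPM in Gpnmb-0 and 7063 CPM in saline cells, a ratio of 1.18 (1.17 to 1.196). Hmox1, the enzyme that opens the heme ring, had 6863 CPM in Gpnmb-positive, 6669 CPM in Gpnmb-0 and 987 CPM in saline cells, a ratio of 1.03 (1.01 to 1.05). Hmox1 thus stood at nearly the same level in both Ter119 groups and about as far above saline in each, 6.95-fold in Gpnmb-positive and 6.75-fold in Gpnmb-0 cells. Spic, the heme-induced transcription factor of red-pulp macrophages, had 506 CPM in Gpnmb-positive, 514 CPM in Gpnmb-0 and 130 CPM in saline cells (0.983, 0.921 to 1.05). The iron exporter Slc40a1, one of the genes that chose the cells, had 4202 CPM in Gpnmb-positive, 4255 CPM in Gpnmb-0 and 4401 CPM in saline cells. Tfrc had 22.2 CPM in Gpnmb-positive, 28.7 CPM in Gpnmb-0 and 33.1 CPM in saline cells (0.772, 0.575 to 1.04). Ireb2, an iron-sensing regulator of messenger RNA, had a ratio of 0.843 (0.663 to 1.08), and Trf, which encodes transferrin, one of 0.843 (0.793 to 0.897). Over the classes of 0, 1, 2 to 3, 4 to 7 and at least 8 Gpnmb UMIs, Fth1 stood at 28190, 31281, 33464, 37813 and 42008 CPM. Hmox1 and Spic were named after their values were seen.

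The lists of antioxidant genes and of glycolysis had medians above that of all genes without a member past 1.5-fold. Antioxidant genes of the NRF2 program gave 16 of 20 measured members above 1 and a median log2 ratio of 0.18. Among them, malic enzyme (Me1) had 39.2 CPM in Gpnmb-positive and 26.4 CPM in Gpnmb-0 cells (1.48, 1.13 to 1.97), and the glutathione transferase Gstm1 had 408 CPM and 315 CPM in that order (1.29, 1.19 to 1.40). Glycolysis gave 12 of 14 members above 1 and a median of 0.21, led by Pfkl, a phosphofructokinase subunit (1.34, 1.01 to 1.80), while Gapdh had a ratio of 1.19 (1.14 to 1.24). The direction of Pfkl varied, with log2 ratios of -0.13, 0.73 and 1.21 in the lowest, middle and highest tertile of depth. Grouped by Cd63, Fabp5, Atp6v0d2 and Cd9 in place of Gpnmb, it had -0.38, -0.30, 0.62 and -0.24. Genes of oxidative phosphorylation had a median of -0.01 over 20 members and those of cytosolic ribosomal proteins 0.01 over 16. Cholesterol synthesis gave a median of 0.07 over 13 members with 0 past 1.5-fold, and its highest member was Fdps, farnesyl diphosphate synthase (1.47, 1.13 to 1.94). PPAR targets gave a median of 0.04 over 16 members, with only Fabp5 and Fabp4 past 1.5-fold, and Pparg itself stood at 49.4 CPM in Gpnmb-positive and 60.4 CPM in Gpnmb-0 cells (0.818, 0.670 to 1.00).

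Genes of Kupffer cell identity were close to level or lower in Gpnmb-positive cells. Of 21 measured members, 0 were past 1.5-fold higher and 1 lower, beside 0.617% and 0.874% of all genes compared. The median log2 ratio was -0.11 in CPM and -0.06 with TMM factors. The lower one was C6, which the cell filter held at 1 UMI or less and whose ratio was above 1 in the middle tertile of depth. Clec4f, a lectin found on Kupffer cells, had 980 CPM in Gpnmb-positive, 1288 CPM in Gpnmb-0 and 5398 CPM in saline cells, a ratio of 0.761 (0.729 to 0.794). The complement receptor Vsig4 had 680 CPM in Gpnmb-positive, 757 CPM in Gpnmb-0 and 3238 CPM in saline cells (0.898, 0.851 to 0.949). Both genes helped to choose the cells, and both were several-fold below saline in each Ter119 group. Cd5l, a secreted lipid-binding protein that was also in the filter, had 6015 CPM in Gpnmb-positive, 6261 CPM in Gpnmb-0 and 7555 CPM in saline cells. Marco, also in the filter, stood above saline in both Ter119 groups. It had 4630 CPM in Gpnmb-positive, 5221 CPM in Gpnmb-0 and 847 CPM in saline cells. Adgre1, which encodes F4/80, had 648 CPM in Gpnmb-positive and 809 CPM in Gpnmb-0 cells (0.802, 0.760 to 0.846). Macrophage core genes gave 0 of 16 past 1.5-fold and a median of -0.14, with the lysozyme gene Lyz2 on the other side at 1.27 (1.24 to 1.29).

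Interferon-stimulated genes were shifted to lower levels in Gpnmb-positive cells, with 27 of 28 measured members below 1 in CPM and 25 of 28 with TMM factors. The median log2 ratio was -0.27, and 1 member, Oasl1, was past 1.5-fold. Ifi27l2a had 387 CPM in Gpnmb-positive, 556 CPM in Gpnmb-0 and 1960 CPM in saline cells, 1.44 times lower in Gpnmb-positive than in Gpnmb-0 cells (1.34 to 1.54). Over the classes of 0, 1, 2 to 3, 4 to 7 and at least 8 Gpnmb UMIs it stood at 556, 483, 420, 354 and 274 CPM. The antiviral gene Ifit1 had 24.3 CPM in Gpnmb-positive and 35.1 CPM in Gpnmb-0 cells (0.693, 0.528 to 0.913). Cxcl9, an interferon-gamma-induced chemokine and the 1 member above 1 in CPM, was named after its value was seen and had 59.8 CPM in Gpnmb-positive and 46.5 CPM in Gpnmb-0 cells (1.29, 1.04 to 1.60). Inflammatory genes gave 1 of 9 past 1.5-fold higher and 1 lower, with a median of -0.28. The higher one was the chemokine Ccl4, with 40.1 CPM in Gpnmb-positive and 23.8 CPM in Gpnmb-0 cells (1.69, 1.27 to 2.27), and the lower one was the cytokine Il1b, with 23.1 CPM and 35.1 CPM in that order (0.657, 0.499 to 0.868), whose direction turned under 2 other settings. MHC class II genes had a median of 0.11 over 6 members, 0 of them past 1.5-fold, with Cd74, the invariant chain, at 996 CPM in Gpnmb-positive, 936 CPM in Gpnmb-0 and 4533 CPM in saline cells.

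**Figure D4:**
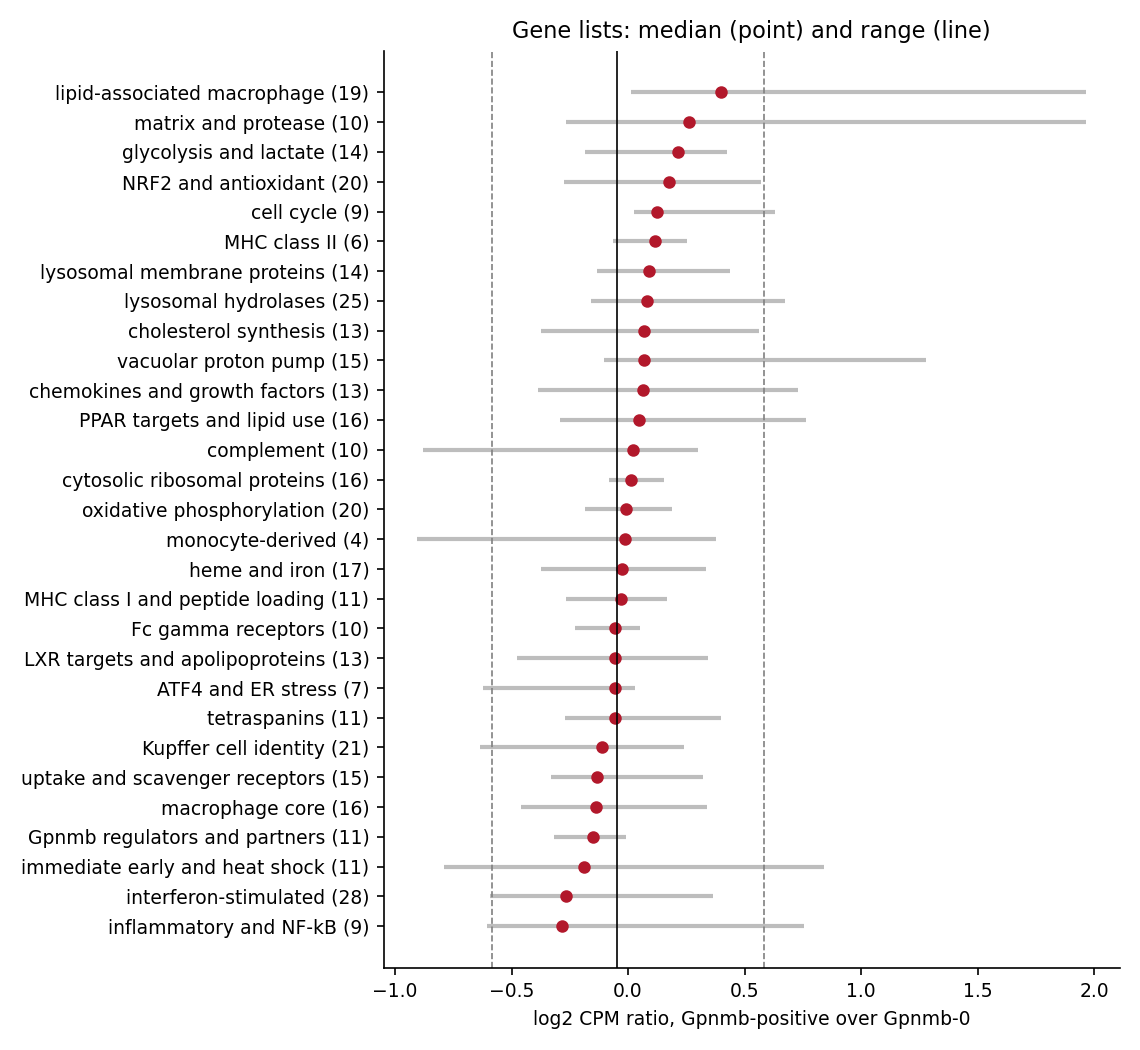
Median (points) and range (lines) of the log2 ratio of Gpnmb-positive over Gpnmb-0 cells (horizontal axis) for each gene list with at least 3 measured genes, other than markers of other cell types (rows), with a black line at the median of all 5834 genes (-0.05) and dashed lines at 1.5-fold. The medians ran between -0.28 for inflammatory genes and 0.40 for genes of lipid-associated macrophages.

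The remaining lists held few members past the fold, beside 0.617% higher and 0.874% lower over all genes compared. Chemokines and growth factors gave 1 of 13 higher, the stress-induced hormone Gdf15 (45.1 CPM in Gpnmb-positive, 27.2 CPM in Gpnmb-0 and 3.02 CPM in saline cells, a ratio of 1.66, 1.27 to 2.18). Immediate early genes gave 1 of 11 higher (Atf3, a stress-induced transcription factor, at 1.79) and 1 lower (Ier2 at 0.579), but Atf3 turned to a log2 ratio of -0.40 in thinned cells grouped again. Genes of the ATF4 program gave 1 of 7 lower, Herpud1 at 0.650, and complement genes 1 of 10 lower, Cd55, which limits complement on the cell surface, at 0.543. Cell cycle genes had 9 of 9 members above 1 and a median of 0.12. Top2a, the topoisomerase of dividing cells, stood at 1.55 (1.18 to 2.06). Also named were Birc5, an inhibitor of cell death that acts in mitosis, Hmgb2, a chromatin protein, and Pcna, the sliding clamp of DNA replication. The direction of these named members varied between the settings that matched depth. With Gpnmb-0 cells weighted to the depth of Gpnmb-positive cells, the log2 ratios of Top2a, Birc5, Hmgb2 and Pcna were -0.33, -0.33, -0.13 and 0.13. In the same order they were 1.37, 0.44, 0.22 and 0.36 in the lowest tertile of depth. They were 0.48, -0.20, -0.059 and 0.25 in the middle tertile and -0.12, -0.21, -0.11 and -0.041 in the highest. Thinned cells gave 0.80, -0.17, 0.18 and 0.19 in that order, and -0.35, -0.95, -0.021 and 0.36 when grouped again. Fc gamma receptors (10 measured), LXR targets (13), MHC class I genes (11) and uptake receptors (15) had 0 members past 1.5-fold and medians of -0.06, -0.06, -0.03 and -0.13. Of 14 genes of monocyte-derived macrophages only 4 were measured, with 1 lower (Plac8) and a median of -0.01.

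Outside the lists, and counting only genes that reached 50 CPM and were seen in 10% or more of the cells in the higher group, the highest was Mfsd12, a transporter of lysosomes and pigment organelles, with 55.8 CPM in Gpnmb-positive, 29.1 CPM in Gpnmb-0 and 18.4 CPM in saline cells, a ratio of Gpnmb-positive over Gpnmb-0 of 1.92 (1.49 to 2.50). Anxa4, a membrane-binding annexin, had 208.5 CPM in Gpnmb-positive, 137 CPM in Gpnmb-0 and 41.4 CPM in saline cells (1.52, 1.35 to 1.71). Lrrc14b had 112 CPM in Gpnmb-positive, 74.4 CPM in Gpnmb-0 and 0.226 CPM in saline cells (1.51, 1.29 to 1.78). The other 12 of the 15 highest had ratios of 1.33 to 1.47, among them the proteasome subunit Psmb6. Of the 15 highest, 12 genes had promoter windows. Counted by gene, with a match in any of its windows, 1 held TCACGTG, 1 TCATGTG and 4 TGACNNNGC. Over all 27025 genes with windows, the shares counted in this way were 4.29%, 4.31% and 14.0%.

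By the same limits the lowest gene outside the lists was Marcksl1, an actin-linked membrane protein, with 28.7 CPM in Gpnmb-positive, 57.0 CPM in Gpnmb-0 and 349 CPM in saline cells, 1.99 times lower in Gpnmb-positive than in Gpnmb-0 cells (1.58 to 2.50). Adgre4, an adhesion receptor related to F4/80, had 76.3 CPM in Gpnmb-positive, 135 CPM in Gpnmb-0 and 407 CPM in saline cells, 1.77 times lower (1.53 to 2.04). Siglece, an inhibitory receptor for sialic acid, had 92.8 CPM in Gpnmb-positive, 151 CPM in Gpnmb-0 and 390 CPM in saline cells, 1.62 times lower (1.42 to 1.85). These 3 surface-associated transcripts were thus lowest in Gpnmb-positive cells and highest in saline cells. Plac8 followed the same order, with 65.4 CPM in Gpnmb-positive, 122 CPM in Gpnmb-0 and 516 CPM in saline cells. Ccnd2, which encodes cyclin D2, did not, with 39.6 CPM in Gpnmb-positive, 59.7 CPM in Gpnmb-0 and 13.5 CPM in saline cells. Of the formyl peptide receptors, Fpr1 had 94.6 CPM in Gpnmb-positive and 138 CPM in Gpnmb-0 cells and Fpr2 had 35.2 CPM and 51.4 CPM. Of the 15 lowest, 11 genes had promoter windows. Counted by gene, 0 held TCACGTG or TCATGTG and 1 held TGACNNNGC, beside the shares over all genes given above.

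**Figure D5:**
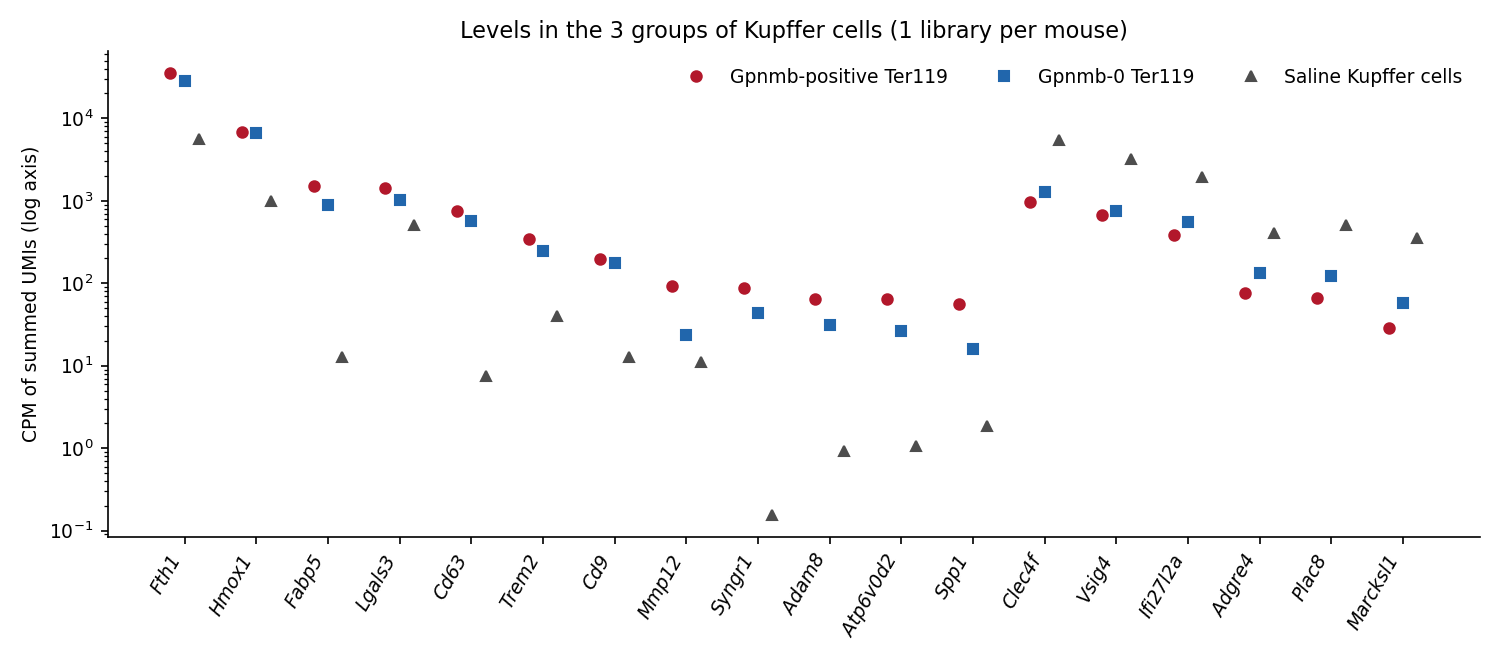
Level in CPM of summed UMIs (vertical log axis) of 18 genes (horizontal axis) in Gpnmb-positive Ter119, Gpnmb-0 Ter119 and saline Kupffer cells, 1 library per mouse, to be compared within a gene. For most genes both Ter119 groups lie close together and far from saline, as for Cd63 at 759, 575 and 7.55 CPM, whereas for Mmp12 the Gpnmb-0 level of 23.8 CPM lies nearer to the saline level of 11.2 CPM.

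The ratios of Mmp12 and Spp1 over saline are given as values, since the Gpnmb-0 levels rest on 63 and 42 UMIs and the Gpnmb-0 shares of both genes could not be told from those in cells of other types. The ratio of Gpnmb-0 over saline was 2.12 for Mmp12 (1.61 to 2.75) and 8.46 for Spp1 (5.78 to 12.2), and that of Gpnmb-positive over saline was 8.30 for Mmp12 and 30.1 for Spp1. For Adam8 the Gpnmb-0 level was 33.5 times that of saline, although from only 54 saline UMIs. These 2 libraries stand for 1 mouse each.

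Across all 2609 cells at 1900 UMIs, the 10 genes of 2802 whose counts were most like those of Gpnmb by Spearman's rank correlation were Fth1 (0.20), Fabp5 (0.19), Ctsd (0.17), Psap (0.14), Lgals3 (0.13), Ctsb (0.11), Cstb (0.11), Mmp12 (0.11), Lyz2 (0.11) and Ftl1 (0.10). The cells share 1 library, the counts are sparse, and all of these correlations are weak. Of the other markers, Atp6v0d2 ranked 13th, Cd63 19th and Cd9 697th. At the other end stood Ifi27l2a (-0.10) and Clec4f (-0.09).

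The Kupffer cells of the same library that kept resident-cell transcripts (2 or more UMIs of Timd4, C6 and Cd163) also carried Gpnmb. Of 343 such cells, 129 (37.6%) had 2 or more Gpnmb UMIs, against the 46.2% above, and Gpnmb stood at 339 CPM over the 343.

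Marker genes of other cell types differed between the groups by less than 1.5-fold in sum in each list but that of B and plasma cells. Summed over each list of 10 genes, neutrophil markers stood at 262 CPM in Gpnmb-positive and 213 CPM in Gpnmb-0 cells, endothelial markers at 252 CPM and 292 CPM, monocyte and dendritic markers at 351 CPM and 401 CPM, and hepatocyte and stellate markers at 335 CPM and 397 CPM. Erythroid markers, hemoglobin included, stood at 7444 CPM in Gpnmb-positive and 7645 CPM in Gpnmb-0 cells. B and plasma cell markers stood at 34.9 CPM in Gpnmb-positive and 18.1 CPM in Gpnmb-0 cells, where Cd79a was among the markers at 0. The gap lay mostly in Igkc, an immunoglobulin light chain gene, with 76 UMIs (13.8 CPM, in 1.16% of cells) in Gpnmb-positive and 2 UMIs (0.755 CPM, in 0.138% of cells) in Gpnmb-0 cells. T and NK markers stood at 3.63 CPM and 4.91 CPM, with Cd3d, Trbc2 and Ncr1 at 0 in Gpnmb-positive cells and Trac, Gzma, Gzmb and Ncr1 at 0 in Gpnmb-0 cells. The dendritic marker Siglech was at 0 in both groups and Xcr1 in Gpnmb-0 cells. Cells with 3 or more UMIs of the list made up 4.81% of Gpnmb-positive and 4.28% of Gpnmb-0 cells for neutrophil markers, 12.7% and 10.9% for endothelial markers and 0.664% and 0.138% for B and plasma cell markers. The part of these transcripts in the results above was not tested.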

How the data were processed

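Single-cell transcript counts of 2 liver macrophage libraries, 1 Ter119 and 1 saline, were used. The authors deposited raw UMI counts per gene and barcode. Per the file headers, the matrices come from Cell Ranger 6.0.2. The submitters' processing notes name the build GRCm38.p6 and, with no role or order, DESeq2 1.26.0, Seurat 3.2.3, Scanpy 1.7.0 and Cell Ranger 4.0.0. The method of assigning cells to mice by hashtag is not given in the sources. The Ter119 library held 61892074 UMIs (median 1854 per barcode) and the saline library 97181787 UMIs in 18354 barcodes (median 3523).

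UMIs were summed over the cells of each group and expressed as CPM without the 4 hemoglobin genes. Genes with at least 20 CPM in 1 group were compared by a fold of 1.5. Ratios have exact conditional binomial and shares exact Clopper-Pearson 95% intervals, and PCR and cell-to-cell spread are not in them. A group at 0 was set to a floor of 3 counts. The comparison was tested on simulated counts. No test between groups and no doublet caller were run. Doublets were limited by the rule's neutrophil and endothelial limits and weighed by the setting without the highest 5% of UMIs. TMM factors came from edgeR 4.0.16 in R 4.3.3, and all else was computed in python 3.11.15 with pandas 2.3.3, scipy 1.17.1 and numpy 2.4.6, with gene positions from GENCODE vM21 matched by gene identifier. Genes with near-identical copies, such as ferritins, Gapdh, Fabp5 and ribosomal genes, are uncertain, since the counting of shared reads is not visible in the files.

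The cell rule, markers and lists were chosen with earlier results of these data known. Named genes are the 5 markers, the rule's genes, the regulators of Gpnmb, up to 4 members per list with the largest absolute log2 ratio, the 10 genes most like Gpnmb, and the 15 highest and 15 lowest ratios outside the lists for genes that reach 50 CPM and are seen in 10% or more of the cells in the higher group, without mitochondrial, ribosomal, hemoglobin, sex-linked, unnamed and receptor segment genes. Some genes are not reported here. Alternatives changed scaling, the count filter, depth, thresholds, cell filters and the grouping gene.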

Additional observations from a re-analysis of the deposited data

How the results depend on the processing

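The count of genes at least 1.5-fold higher in Gpnmb-positive cells, 36 as reported, was 55 with median-of-ratios factors, 956 without a low-count filter, 4 at 100 CPM or more (Fabp5, Fabp4, Anxa4 and Lrrc14b), 7 at 2-fold, 119 in thinned cells, 142 in thinned cells grouped again, 388, 180 and 179 in the lowest, middle and highest tertile of depth, 124 for members with at least 5 UMIs, 20 against cells with 0 or 1 UMI, 215 at a mitochondrial limit of 5%, 267 with Kupffer genes at 2% or more, and 109 with the random split of UMIs, which was added after seeing the data. The count of lower genes, 51 as reported, was under the same settings 32, 2704, 3 (Siglece, Adgre4 and Plac8), 1, 199, 197, 392, 262, 251, 307, 15, 273, 383 and 194, and it was 31 with TMM factors and 100 for members with at least 3 UMIs. Grouping by Cd63, Fabp5 or Atp6v0d2 in place of Gpnmb gave 74, 224 and 305 higher and 139, 414 and 525 lower genes. Settings with fewer summed UMIs widen ratios by construction; for the other shifts the cause was not tested. Of the 36 higher genes, 26 were still past 1.5-fold in thinned cells and all 36 kept their sign there, and of the 51 lower genes 34 and 51. That setting kept the groups made before thinning and drew from the same UMIs. In thinned cells grouped again, 18 of the 36 and 20 of the 51 were still past 1.5-fold, and 33 and 49 kept their sign. With the random split, 23 of 36 and 26 of 51 were still past it.

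The number of Gpnmb-positive cells, 1205 as reported, was 570 after thinning, 766 and 284 at thresholds of 3 and 5 UMIs, 411 at a mitochondrial limit of 5% and 285 with Kupffer genes at 2% or more. The median log2 ratio of lipid-associated macrophage genes, 0.40 as reported, was 0.20 at 100 CPM or more, 0.53 and 0.67 for members with at least 3 and 5 UMIs and 0.22 when grouped by Cd9. Of the log2 ratios of named genes past 1.5-fold as reported, 14 changed sign over all settings. Smaller ratios, such as that of Pfkl, also changed sign and are not in the 14. Top2a was -0.35 in thinned cells grouped again, -0.33 when Gpnmb-0 cells were weighted to the depth of Gpnmb-positive cells, -0.12 in the highest tertile, -0.27 at a mitochondrial limit of 5% and -2.70 when grouped by Atp6v0d2. Atf3 was -0.40 in thinned cells grouped again. Il1b was 0.10 at a mitochondrial limit of 5% and 0.041 when grouped by Cd9. Oasl1 was 0.17 by Cd63 and 0.059 by Fabp5, Ccnd2 was 0.049 by Cd63, Lrrc14b was -0.0097 by Cd63 and -0.0041 by Cd9, and C6 was 0.10 in the middle tertile. The cause was not tested.

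No paired analysis was possible because both groups are cells of 1 library, and no replicate could be left out. With Gpnmb at a median of 3 UMIs in Gpnmb-positive cells, depth limits the grouping itself: a cell with 0 UMIs may hold the transcript. Genes under 20 CPM were not compared. The scalings moved the median of all genes by less than 0.1 on the log2 scale, to 0.01 with TMM or median-of-ratios factors.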

Other observations

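Within the Gpnmb-positive cells, some transcripts were spread very unevenly at 1900 UMIs per cell. The macrophage elastase gene Mmp12 had a variance 3.17 times its mean in Gpnmb-positive and 1.60 times in Gpnmb-0 cells, and 74.7% of its counts in Gpnmb-positive cells came from the top 5% of cells. The chemokine gene Cxcl9 had 81.4% of its counts in the top 5% of cells, with values of 2.34 in Gpnmb-positive and 2.05 in Gpnmb-0 cells. The peroxiredoxin gene Prdx1, an antioxidant enzyme found in most cells, had 5.06 in Gpnmb-positive and 2.60 in Gpnmb-0 cells. The neutrophil transcripts S100a8 and S100a9, which the cell filter limits, had 3.89 and 4.01 in Gpnmb-positive and 1.82 and 2.24 in Gpnmb-0 cells.

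Grouping the same 2609 cells by another marker, at 2 or more UMIs against 0, gave 1667 against 402 cells for Cd63, 2063 against 218 for Fabp5, 100 against 2252 for Atp6v0d2 and 494 against 1297 for Cd9. Mmp12 was higher in the marker-positive cells in each of these groupings, with log2 ratios of 1.24 by Cd63, 1.90 by Fabp5, 2.30 by Atp6v0d2 and 1.16 by Cd9. Spp1 had log2 ratios of 0.81, 0.84, 2.07 and 0.25 in the same order, and Adam8 of 0.28, 0.38, 1.37 and 0.14. Of the 36 genes past 1.5-fold higher by Gpnmb, 1 was past it when cells were grouped by Cd9.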
